A study of Mus musculus with 6 samples.

Results

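The 4 genes described here, Serpina3f, Serpina3g, Serpina3i and Serpina3n, are protease inhibitors of the mouse Serpina3 cluster, and were measured in single cells of the aged mouse lung. They were picked by symbol from 31054 features, of which 10 were Serpina3 genes. They had been chosen with their levels by cell type and their differences between the groups in view, so those values are given as a description and without a test. Single-cell RNA sequencing had been run on lungs of male C57BL/6 mice of 21 months. The 3 mice labelled p16-DTR carried p16-CreERT2 and R26-LSL-DTR, so that tamoxifen turns on a diphtheria toxin receptor in cells that use the p16 promoter, and the 3 mice labelled control carried p16-CreERT2 alone. Treatment was the same for all mice: 5 days of tamoxifen, an interval of 2 weeks, 5 days of diphtheria toxin, and recovery over 2 weeks. Each library came from 1 mouse and mixed 20000 CD45-negative with 9000 CD45-positive cells.

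Serpins are suicide inhibitors: the protease cuts an exposed loop of the serpin, the serpin folds over, and the enzyme stays trapped. Humans have a single SERPINA3 gene, which makes the acute-phase plasma protein alpha-1-antichymotrypsin, whereas the mouse cluster has expanded into many neighbouring genes. Serpina3n encodes a secreted inhibitor of leukocyte serine proteases and is a widely used marker of inflamed or reactive tissue. Serpina3g, also called Spi2A, encodes an inhibitor that stays in the cytosol, acts on cysteine cathepsins and is known from activated and memory lymphocytes.

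The libraries held 13482 to 17332 barcodes and 254200305 to 344421685 unique molecular identifiers (UMIs, counts of captured transcript 3′ ends), with medians of 16587.5 to 18149 UMIs per barcode. Between 59 and 94 barcodes were shared by any pair of libraries. Of 94392 barcodes 91156 were kept, and 76994 of these entered 1 of 31 cell classes by marker genes that include no Serpina3 gene; 19 classes had at least 50 cells in every library. In each class at least 1 of its own markers was among its 10 leading genes. Control replicate 1 stood apart by its makeup, with 36.6% of kept cells in the 3 fibroblast classes against 15.8% to 24.0% in the other 5 libraries. Cdkn2a, the gene of p16, had 7.10, 8.57 and 7.31 UMIs per 1e6 under the label p16-DTR and only 1.15, 2.60 and 2.84 in control libraries, so the level of the gene whose cells were targeted goes against the removal that the label implies. Its 3′ UMIs do not separate p16 from the other product of the locus. Groups are therefore named by their labels throughout, and every direction below is between labels.

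All 4 genes lie on the plus strand of chromosome 12 within 199.8 kb (GRCm38, GENCODE M21). Serpina3f spans chr12:104214544-104221129, Serpina3g chr12:104236245-104241939, Serpina3i chr12:104263122-104269372 and Serpina3n chr12:104406729-104414329. Their longest annotated coding sequences measure 1335, 744, 1224 and 1254 bases, so that of Serpina3g is the shortest in this annotation. Aligned coding bases are identical in 85.0% (Serpina3i and Serpina3n) to 92.1% (Serpina3f and Serpina3i) of positions. Pairs with Serpina3g rest on only 646 to 744 aligned bases. Reads of such close copies could be assigned to the wrong gene. In the last 500 bases of each gene's transcript with the longest coding sequence, 0 of 411 windows of 90 bases matched another Serpina3 transcript exactly. That check covers neither reads with mismatches nor reads from other transcript ends, so it does not exclude wrong assignment. How reads that map to several genes were handled is not given in the sources used here.

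A conserved block lies before the start site of each gene and is shown because the 4 copies differ inside a motif of signal transducers and activators of transcription (STAT), the factors that carry interleukin 6 and interferon signals to the acute-phase genes. The 60 bases are from RefSeq promoter windows of GRCm38.p6, plus strand, 5′ to 3′, with the 9 bases aligned at the motif in capitals. They are chr12:104214392-104214451, chr12:104236083-104236142, chr12:104262989-104263048 and chr12:104406554-104406613.
Serpina3f: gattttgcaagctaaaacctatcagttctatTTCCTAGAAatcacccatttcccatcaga
Serpina3g: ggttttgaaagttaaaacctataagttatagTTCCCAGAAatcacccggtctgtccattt
Serpina3i: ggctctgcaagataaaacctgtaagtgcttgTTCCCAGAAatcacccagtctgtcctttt
Serpina3n: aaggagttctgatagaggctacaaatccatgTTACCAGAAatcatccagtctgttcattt

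The motif searched was TTCNNNGAA, which reads the same on both strands. Its letters were present in the copies of Serpina3f, Serpina3g and Serpina3i, at 121, 33 and 102 bases before a RefSeq start (210 before the second start listed for Serpina3f), and in 8.30% of 32851 promoter windows of the same 300 bases. Counted from 1 at the 5′ base of the capitals and relative to Serpina3g, Serpina3f carries C5T and still matches, while Serpina3n carries C3A and does not match. On both strands, the looser motif of NF-kB (GGG, any 5 bases, CC) matched a window of each of the 4 genes, but also 50.8% of all windows. The interferon-stimulated response element (GAAA, any 2 bases, GAAA), the glucocorticoid response element (AGNACA, any 3 bases, TGTNCT) and the AP-1 motif (TGANTCA), searched likewise, were not found in the 4 genes' windows and occurred in 3.44%, 0.0639% and 7.81% of all windows. No match of the NF-kB motif overlapped the capitals. These matches describe letters and show nothing of binding.

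By level per class, the 4 genes formed a fibroblast pair, Serpina3n and Serpina3i, and a pair with its highest levels in lymphocytes and venous endothelium, Serpina3g and Serpina3f. Serpina3n accounted for 61.9% of all Serpina3 UMIs, and 84.3% of its 122495 UMIs came from the 3 fibroblast classes. Serpina3i had 6330 UMIs, of which 82.5% came from the same classes. Serpina3g, with 27799 UMIs, and Serpina3f, with 7275, drew 19.8% and 24.0% from fibroblasts, with a range over libraries of 10.9% to 43.2% and 14.1% to 59.9%. In the UMIs pooled by label, the largest single source differed. For Serpina3g it was B cells under the label p16-DTR (16.2%, with 11.6% from alveolar fibroblasts) and alveolar fibroblasts in controls (22.6%, with 14.2% from B cells). For Serpina3f it was general capillary cells under the label p16-DTR (21.4%, with 16.8% from alveolar fibroblasts) and alveolar fibroblasts in controls (28.6%, with 9.67% from general capillary cells). The control shares of alveolar fibroblasts leaned on control replicate 1, the library richest in fibroblasts. It held 574 Serpina3f UMIs in that class, against 165 and 150 in control replicates 2 and 3. For Serpina3g the class gave 8.52% to 37.9% of UMIs over libraries, with the highest share in control replicate 1. In p16-DTR replicate 3, Serpina3f had 349 UMIs in alveolar fibroblasts and 344 in general capillary cells. The orders are thus not read as label differences. The shares of UMIs also reflect how many cells of each class were loaded, so the levels below are per 1e6 UMIs of a class. Classes are ranked among the 19 with at least 50 cells in every library.

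**Figure D1:**
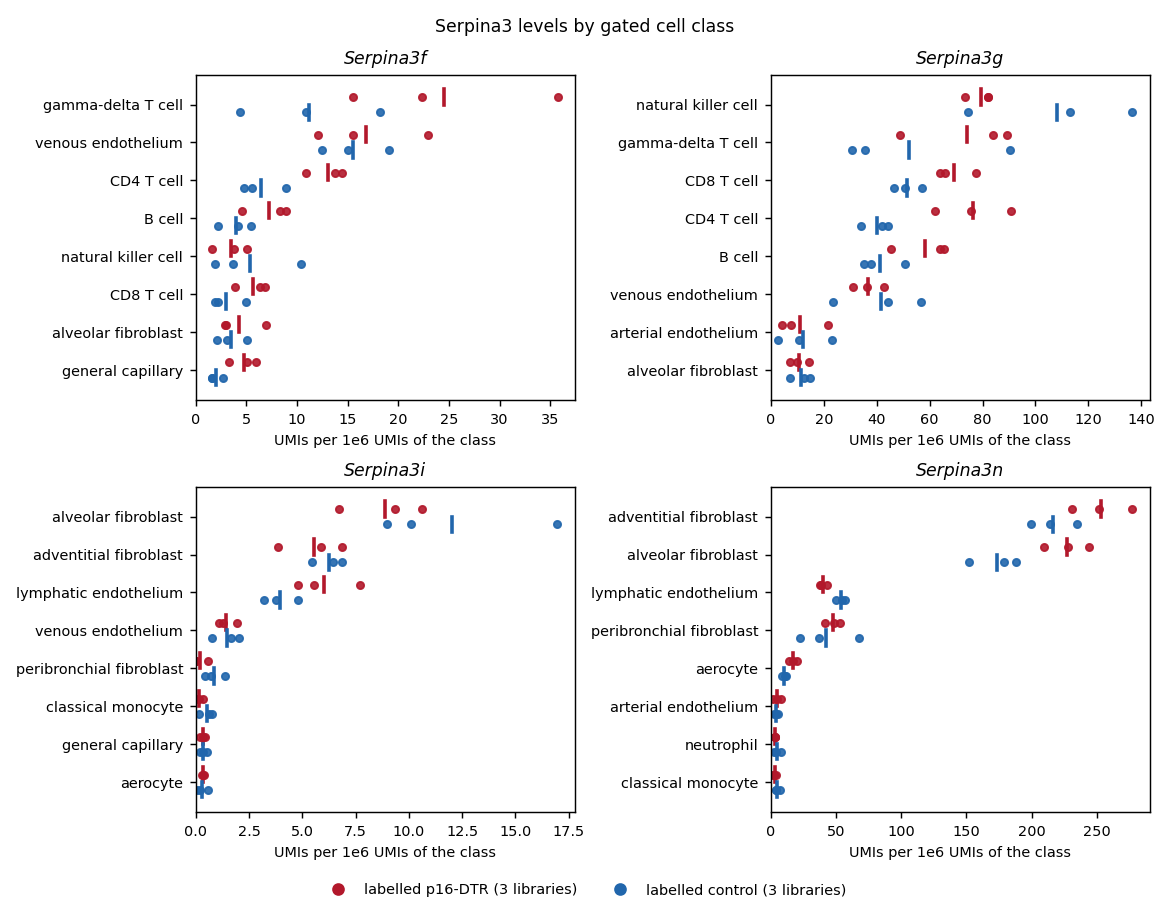
Level of each gene in UMIs per 1e6 UMIs of the class (horizontal axis), in the 8 classes with the highest mean among the 19 with at least 50 cells in every library; each point is 1 library, red for the label p16-DTR and blue for control, and the short line is the mean of 3. Among these classes, Serpina3n and Serpina3i are highest in fibroblasts, Serpina3g in natural killer and T cells, and Serpina3f in gamma-delta T cells and venous endothelium, whose values overlap.

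Serpina3n was highest in adventitial fibroblasts, the fibroblasts of the vessel and airway cuffs, and in alveolar fibroblasts, which support the gas exchange walls. In adventitial fibroblasts its level was 277, 231 and 251 UMIs per 1e6 under the label p16-DTR and 214, 235 and 199.8 in controls. The groups overlapped there, by 1 library on each side, and the log2 fold change was 0.23 (SE 0.09). In alveolar fibroblasts the levels were 228, 209.8 and 244 against 179, 188 and 152. All 3 libraries labelled p16-DTR were above all control libraries, with a log2 fold change of 0.42 (SE 0.10); 11.1% of the 16615 genes tested in this class were higher without overlap. Since this contrast chose the gene, nothing is read from that count.

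The summed level of the 6 adventitial fibroblast markers within the alveolar fibroblast class was 1569 to 1802 UMIs per 1e6 under the label p16-DTR and 1444 to 1575 in controls, ranges that overlapped. Its part in the Serpina3n difference was not tested. The summed alveolar fibroblast markers of that class were 7786 to 10012 against 9020 to 10163. The share of alveolar fibroblasts with a Serpina3n UMI, after every cell was thinned to 5000 UMIs, was 57.3% ± 2.75 (SD, n = 3) under the label p16-DTR and 50.6% ± 5.07 (SD, n = 3) in controls. Unlike the levels, these shares overlapped between the groups. Control replicate 2 (1247 cells with a Serpina3n UMI and 1009 without) was above p16-DTR replicate 2 (1252 and 1063). Without thinning the shares were 89.6% and 87.0%, so most cells of the class carried the transcript in both groups.

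Below the fibroblasts, Serpina3n was found in lymphatic endothelium, in peribronchial fibroblasts and in aerocytes, the thin capillary cells of the alveolus. Lymphatic endothelium held 37.9, 42.9 and 38.6 UMIs per 1e6 under the label p16-DTR and 54.5, 56.9 and 49.6 in controls. Here the order was the reverse of that in alveolar fibroblasts, and the groups did not overlap (log2 fold change −0.44, SE 0.12; 8.26% of 11480 genes were lower without overlap). Peribronchial fibroblasts held 41.5, 48.2 and 53.0 against 37.1, 68.0 and 22.4, and control libraries lay both above and below the others. Over all 6 libraries, these neighbours in the order of levels did not differ beyond their spread (46.7 ± 8.17 and 45.0 ± 15.4, SD, n = 6), which includes the difference between labels. Aerocytes held 13.9, 17.0 and 20.3 against 11.2, 8.39 and 11.2, again without overlap (log2 fold change 0.77, SE 0.17; 6.82% of 12829 genes were higher without overlap).

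Serpina3n was near its lowest measured levels in most blood and epithelial classes. Of thinned neutrophils 0.984% ± 0.218 and 1.42% ± 0.686 carried a Serpina3n UMI (label p16-DTR and control, SD, n = 3), at median depths of 10557 and 10483.5 UMIs. Of thinned alveolar type 2 cells, the surfactant makers, 0.298% ± 0.516 and 0.782% ± 0.861 did. Whether shares of this size are background was not tested, and the Serpina3n values of other blood classes are set beside them.

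In classical monocytes (2.78, 3.85 and 1.83 against 6.87, 4.08 and 3.998 UMIs per 1e6) and in CD8 T cells (1.11, 1.50 and 1.44 against 6.83, 2.15 and 2.07), Serpina3n was lower under the label p16-DTR without overlap. The background shares of genes lower without overlap were 16% in monocytes and 9.89% in CD8 T cells. Neutrophils held 3.20 ± 0.211 against 4.74 ± 2.52 (SD, n = 3). The mean in monocytes differed from that of neutrophils by less than 1 SD of the monocyte values in each group, and CD8 T cells were below neutrophils under the label p16-DTR. In these classes the summed level of the 6 alveolar fibroblast markers was also lower under the label p16-DTR. It was 61.1 to 138 against 276 to 329 in monocytes, with 4 of 6 genes lower without overlap, and 51.7 to 87.4 against 156 to 234 in CD8 T cells, with 5 of 6. Their part in the Serpina3n difference was not tested. Without control replicate 1, the library richest in fibroblasts, the log2 fold change went from −0.79 to −0.47 in monocytes and from −1.38 to −0.60 in CD8 T cells.

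Over all kept cells Serpina3n measured 75.5, 63.3 and 58.6 UMIs per 1e6 under the label p16-DTR and 92.6, 61.3 and 54.9 in controls. The groups overlapped, with a log2 fold change of −0.03 (SE 0.22) that became 0.24 without control replicate 1. A sum over all cells mixes the share of fibroblasts with the amount per fibroblast. Control replicate 1 had the highest share of fibroblasts (36.6%) and the highest Serpina3n sum, but control replicate 3, with the next highest share (24.0%), had the lowest sum.

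Serpina3i followed the fibroblast pattern at a far lower level. Alveolar fibroblasts held 10.6, 6.73 and 9.34 UMIs per 1e6 under the label p16-DTR and 17.0, 10.1 and 8.99 in controls. The groups overlapped (log2 fold change −0.41, SE 0.26), and without control replicate 1 the value was −0.07. Adventitial fibroblasts held 6.88, 3.87 and 5.88 against 6.86, 6.45 and 5.46. In alveolar fibroblasts the groups were thus separated for Serpina3n and overlapped for its neighbour Serpina3i; the difference between the genes was not tested.

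Lymphatic endothelium ranked next for Serpina3i, with 5.53, 7.71 and 4.82 UMIs per 1e6 against 4.81, 3.21 and 3.79. These rested on 59 and 38 UMIs in all and did not overlap by a narrow margin (log2 fold change 0.56, SE 0.34; 8.9% of genes in this class were higher without overlap), and the log2 fold change was 0.35 without p16-DTR replicate 2. In the same class Serpina3n was lower. Venous endothelium came after it, at 1.44 ± 0.450 against 1.48 ± 0.643 (SD, n = 3). No Serpina3i UMI was found in 1916 CD4 T cells thinned to 5000 UMIs, which allows a share of cells with a UMI at that depth of up to 0.157%, or in 1059 thinned natural killer cells, which allows up to 0.283%. Without thinning the first class held 3 Serpina3i UMIs and the second 0.

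Serpina3g was highest in natural killer (NK) cells and the 3 T cell classes. NK cells held 82.2, 82.2 and 73.3 UMIs per 1e6 under the label p16-DTR and 74.4, 137 and 113 in controls. The groups overlapped, and the log2 fold change was −0.47 (SE 0.18), or −0.31 without control replicate 2. Gamma-delta T cells held 83.8, 89.4 and 48.9 against 30.6, 35.7 and 90.4, with control replicate 3 above all others. The gamma-delta class had 60 to 94 cells per library, and its groups overlapped. Over all 6 libraries the levels of NK, gamma-delta, CD8 and CD4 T cells were 93.7 ± 25.6, 63.1 ± 27.8, 60.3 ± 11.2 and 58.2 ± 22.1 (SD, n = 6). The 3 T cell classes did not differ beyond that spread, which includes the difference between labels. Within controls, CD8 T cells were above CD4 T cells without overlap (51.5 ± 5.35 and 40.1 ± 5.36, SD, n = 3). Under the label p16-DTR these means stood in the reverse order, with overlap (69.1 ± 7.40 and 76.2 ± 14.4, SD, n = 3).

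CD4 T cells held 90.9, 62.0 and 75.8 UMIs of Serpina3g per 1e6 under the label p16-DTR against 41.8, 34.1 and 44.4 in controls. Every library of the first group was above every control, by a log2 fold change of 0.90 (SE 0.16). In this class 13.2% of 11778 genes were higher without overlap, the highest such share of the classes. The share of CD4 T cells with a Serpina3g UMI after thinning was 25.0% ± 3.55 against 13.9% ± 1.23 (SD, n = 3). Such a share rises with the amount per cell as well as with the number of expressing cells, which were not told apart. Serpina3f differed in the same way in CD4 T cells, at 10.9, 14.5 and 13.7 against 4.81, 5.56 and 8.87 UMIs per 1e6 (log2 fold change 0.98, SE 0.26).

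The summed NK cell markers in the CD4 T cell class were 119 to 180 UMIs per 1e6 under the label p16-DTR and 38.6 to 40.8 in controls, with 1 of 6 genes higher without overlap and none at 0 in every library. A sum can rest on few of its genes, so it does not stand for each marker of the panel. The part of these markers in the Serpina3g and Serpina3f differences was not tested. With the gate requiring 4 markers in place of 3, and without the 5% of cells with most UMIs, the log2 fold changes of both genes stayed within 1 SD of the values above.

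In CD8 T cells Serpina3g measured 63.8, 77.6 and 65.9 UMIs per 1e6 against 46.7, 57.3 and 50.6, also without overlap (log2 fold change 0.44, SE 0.10; 6.58% of 12147 genes were higher without overlap). B cells held 45.5, 65.4 and 63.8 against 35.2, 37.8 and 50.5, where 1 library of each group crossed over. After thinning, 18.3% ± 3.79 and 13.5% ± 2.20 (SD, n = 3) of B cells carried the transcript. In alveolar type 2 cells 0 of 832 thinned cells had a Serpina3g UMI, which allows a share of cells with a UMI at that depth of up to 0.361%; without thinning the class held 6 Serpina3g UMIs in all. Type 2 cells were also deeper than CD4 T cells, at median depths of 46704.5 and 45612.5 UMIs against 13924 and 15886.

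**Figure D2:**
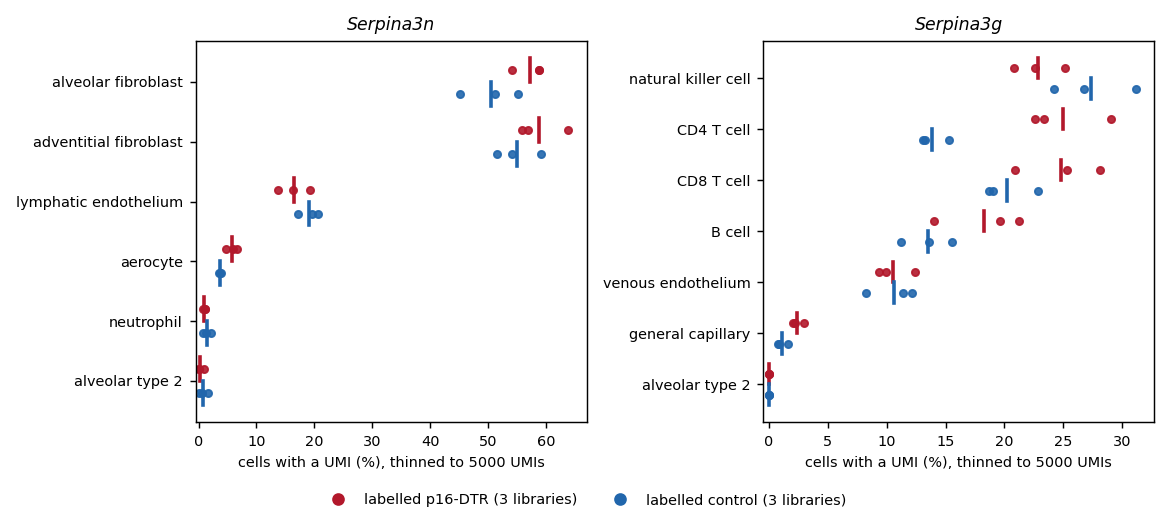
Share of cells with at least 1 UMI of Serpina3n (left) or Serpina3g (right) after thinning every cell to 5000 UMIs; points are libraries, red for the label p16-DTR and blue for control, and short lines are means of 3. Serpina3g was found in 25.0% of CD4 T cells under the label p16-DTR and 13.9% in controls, and in no thinned alveolar type 2 cell.

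Endothelial classes divided for the Serpina3g and Serpina3f pair. Venous endothelium had the highest vessel levels, and no separation between labels: Serpina3g held 42.8, 31.1 and 36.5 UMIs per 1e6 against 44.3, 56.8 and 23.4. Serpina3f in the same cells held 22.9, 15.5 and 12.1 against 15.02, 19.1 and 12.5. The control values lay on both sides of the others for Serpina3g and within their range for Serpina3f.

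General capillary cells, the progenitor-like capillary type of the alveolus, had low levels that were separated. Serpina3g measured 7.94, 4.76 and 6.93 UMIs per 1e6 under the label p16-DTR and 2.71, 4.64 and 1.95 in controls (log2 fold change 1.12, SE 0.33). Serpina3f measured 5.98, 3.32 and 5.10 against 1.57, 2.68 and 1.61 (log2 fold change 1.34, SE 0.29). In this class 9.12% of 16292 genes were higher without overlap. The margin for Serpina3g between the lowest library of one group and the highest of the other was narrow.

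At these low levels few cells held a UMI. Such shares fall with the level itself, so they do not show how many cells express the genes. After thinning, 2.39% ± 0.505 of general capillary cells under the label p16-DTR carried a Serpina3g UMI and 1.07% ± 0.443 of control cells (SD, n = 3). For Serpina3f the shares were 1.78% ± 0.335 and 0.825% ± 0.214. The summed venous markers in the class were 516 to 621 UMIs per 1e6 against 433 to 538, ranges that overlapped. The summed lymphatic endothelium markers were 1000.4 to 1132 against 598 to 813, with 1 of 6 genes higher without overlap. The part of either panel in the Serpina3 values was not tested.

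Aerocytes were like general capillary cells. Serpina3g held 4.03, 3.02 and 3.82 UMIs per 1e6 against 1.65, 0.711 and 1.69 (log2 fold change 1.46, SE 0.35), and Serpina3f 3.56, 2.27 and 2.76 against 0.484, 0.569 and 1.83 (log2 fold change 1.55, SE 0.50). The Serpina3f values rested on 84 and 40 UMIs, and 1 control cell held 30.0% of the latter. Without control replicate 3 the Serpina3f log2 fold change was 2.43. Aerocytes are thus the class where Serpina3f, Serpina3g and Serpina3n were all higher under the label p16-DTR without overlap, each from a low level.

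**Figure D3:**
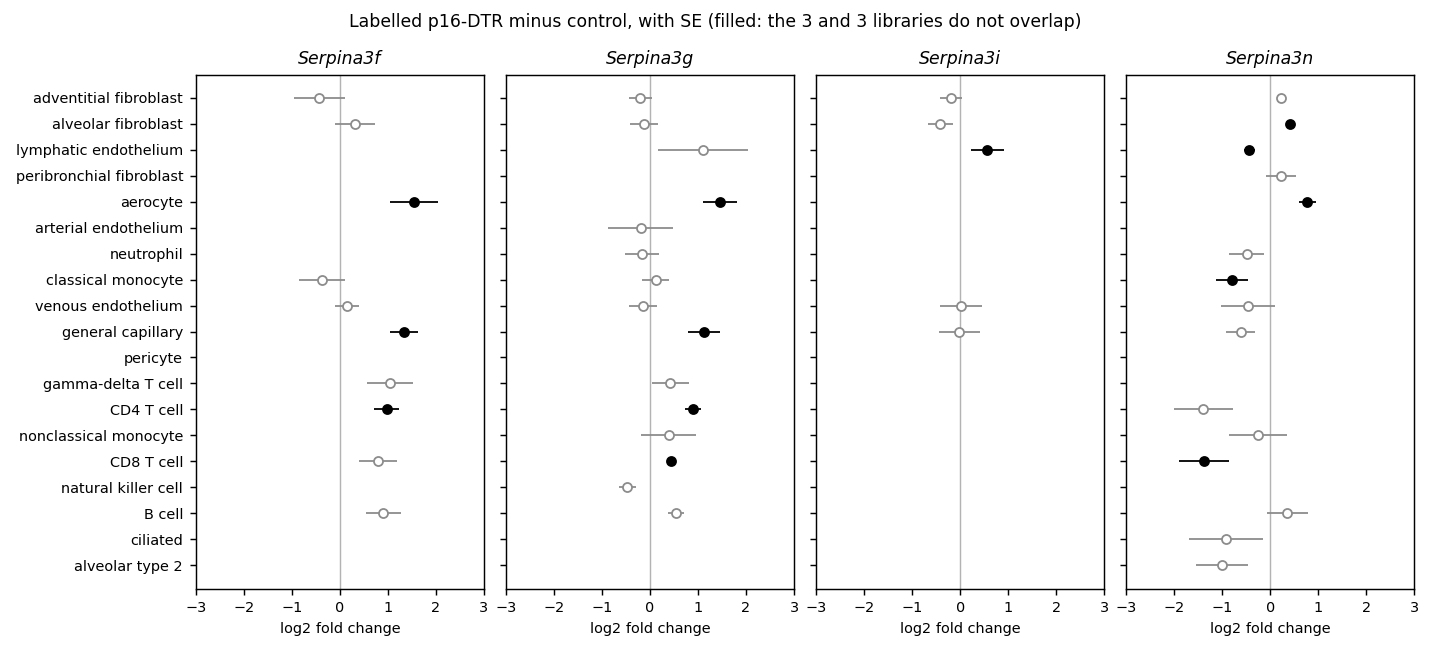
Log2 fold change of each gene between the labels p16-DTR and control, with its standard error, in each of the 19 classes where the gene passed the filter on low counts; filled points mark classes where the 3 and 3 libraries do not overlap. Serpina3f and Serpina3g have filled points above 0, and Serpina3n has them on both sides.

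Among the 19 classes with at least 50 cells in every library, Serpina3f itself had its highest mean in gamma-delta T cells, at 22.3, 35.8 and 15.6 UMIs per 1e6 under the label p16-DTR and 10.9, 4.36 and 18.2 in controls, followed by venous endothelium, CD4 T cells and B cells. The levels of the first 2 of these classes, 17.9 ± 10.7 and 16.2 ± 4.16 (SD, n = 6), did not differ beyond their spread, which includes the difference between labels. Their means were 24.6 and 16.8 under the label p16-DTR, and 11.2 and 15.5 in controls. In B cells it held 4.57, 8.87 and 8.30 against 2.18, 4.20 and 5.50. Control replicate 3 lay above the lowest library labelled p16-DTR in both lymphocyte classes. Over all kept cells Serpina3f measured 4.55, 4.38 and 5.24 against 3.04, 3.78 and 3.51, and Serpina3g 15.3, 16.3 and 19.95 against 12.8, 14.0 and 14.8, without overlap for either gene. The log2 fold change of Serpina3g, 0.36, became 0.24 without p16-DTR replicate 3. The background for all cells was 8.58% of 21630 genes. These sums also mix the makeup of the libraries with the amount per cell. CD8 T cells numbered 1550 under the label p16-DTR and 977 in controls, and alveolar fibroblasts 7197 and 10300. B cells, another class with high Serpina3g, numbered 2365 and 2700. The part of makeup in the sums was not tested.

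Counting classes, Serpina3f passed the filter on low counts in 10 of 19 classes, was higher without overlap in 3 and lower in 0. Serpina3g passed in 15, with 4 higher and 0 lower. Serpina3i passed in 5, with 1 higher and 0 lower, and Serpina3n passed in 15, with 2 higher and 3 lower. Over all genes and classes 7.77% of tests were higher and 12.3% lower without overlap. A gene can pass the filter through the group where it is high, so these counts describe the genes and support nothing. A single library could also set a value: the log2 fold change of Serpina3g in lymphatic endothelium, 1.09, became −1.20 without p16-DTR replicate 1, which held 61 of its 99 UMIs.

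Plasma cells, with 23 to 32 cells per library, were too few for the fit and are left out of the rankings. Their Serpina3g level was 99.7, 73.5 and 46.4 UMIs per 1e6 under the label p16-DTR and 43.7, 45.8 and 58.1 in controls. The mean over 6 libraries, 61.2, lay in the range of the T cell means (58.2 to 63.1). Under the label p16-DTR, 1 cell held 139 of the 386 Serpina3g UMIs, against 38 of 280 in controls. The Serpina3f level of plasma cells ran from 3.49 to 79.8 with a mean of 28.6 over 6 libraries. That mean was above the 17.9 of gamma-delta T cells, and the range was wider than in any class with 50 cells. In controls, 1 cell held 74 of the 236 Serpina3f UMIs, against 15 of 80 under the label p16-DTR. Both plasma cell levels thus leaned on single cells.

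A Serpina3f UMI was found more often in cells with a Serpina3g UMI than in cells without one in 6 of 6 libraries of 4 classes, although most cells with Serpina3g had none of Serpina3f. In thinned general capillary cells with a Serpina3g UMI, 16.3% to 26.2% also had a Serpina3f UMI in each of the 6 libraries, whereas 0.454% to 1.47% of those without Serpina3g did. In venous endothelium the shares were 12.7% to 30.0% and 2.86% to 4.41%. In CD4 T cells they were 2.70% to 21.8% and 1.16% to 2.20%, with the smallest gap in control replicate 1 (2.70% and 1.95%). B cells were the other class with this direction in every library. It held in 4 or 5 of 6 libraries in 5 further classes, CD8 and gamma-delta T cells, NK cells, arterial endothelium and alveolar fibroblasts. The other 10 classes had it in 3 or fewer, with no test made. There, a library without any Serpina3g-positive cell was counted as not showing the direction. Thinned pericytes and alveolar type 2 cells had 0 such cells in all libraries and could not be judged, and several others of the 10 had few. For the fibroblast pair, alveolar fibroblasts with a Serpina3n UMI had a Serpina3i UMI in 6.55%, 3.83% and 5.80% of cells under the label p16-DTR, against 3.04%, 1.98% and 2.51% of those without Serpina3n. In controls the shares were 8.14%, 5.77% and 4.86% against 6.49%, 5.85% and 3.04%, so control replicate 2 showed the reverse order by a narrow margin.

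**Figure D4:**
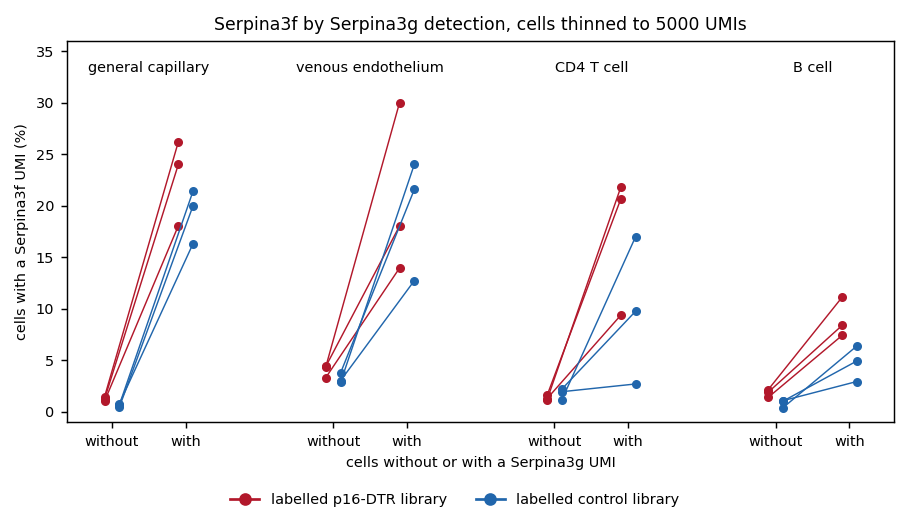
Share of cells with a Serpina3f UMI (vertical axis) among cells without and with a Serpina3g UMI, after thinning to 5000 UMIs, in 4 classes; each line joins the values of 1 library, red for the label p16-DTR and blue for control. In general capillary cells the share with Serpina3g is 16.3% to 26.2% in the 6 libraries.

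Across the 114 points of 19 classes and 6 libraries, Spearman's rho of the log2 levels was 0.86 for Serpina3f with Serpina3g and 0.64 for Serpina3i with Serpina3n, but −0.07 for Serpina3f with Serpina3n. The points share libraries, depth and cell class, so these are descriptions without a p. Of 13956 genes compared, Serpina3g was the closest to Serpina3f, followed by AU020206 (0.80), Phf6 (0.78), Plgrkt (0.77) and Map2k5 (0.76). The closest to Serpina3g were Serpina3f, Klhl6 (0.83), Mbnl1 (0.81), Fam172a (0.80) and Gm26917 (0.79). Serpina3n was most like Colec12 (0.83), a scavenger receptor, Cped1 (0.82), Adarb1 (0.82), Nrcam (0.81) and Serping1 (0.81), the C1 inhibitor of the complement system. Colec12 (0.72) and Cped1 (0.71) were also among the closest to Serpina3i, with Dock4 (0.73) and Mical3 (0.71).

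The rest of the locus and the genes around these inhibitors were followed in 7 lists. Of the other Serpina3 genes, Serpina3c (24849 UMIs) and Serpina3m (9011) were measurable, and Serpina3a, Serpina3b and Serpina3k had 13, 53 and 14 UMIs. Serpina3c was highest in alveolar fibroblasts, at 49.3 ± 11.6 UMIs per 1e6 under the label p16-DTR and 50.8 ± 5.81 in controls (SD, n = 3), and Serpina3m likewise, at 15.3 ± 2.12 and 13.6 ± 1.19. Serpina3m is annotated over Serpina3k, so their counts may be split. Of 10 pairs of a locus gene and a class, 0 passed edgeR's quasi-likelihood test at an adjusted p of 0.05, 4 had an unadjusted p under 0.05, and DESeq2 called 1.

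Over all 7 lists, 23 of 1310 pairs of gene and class passed that test, in 7 classes, against 0.544% of all 232131 pairs. CD4 T cells held 11 of them, 6 higher and 5 lower, out of 68 list genes tested there (16.2%), beside 4.1% of all genes of the class. The members' own calls are left out. As the lists were chosen with earlier results of these data known, nothing is read from a share above that of all genes. Over all genes and classes, 14.1% of pairs had an unadjusted p under 0.05 by edgeR, and DESeq2 called 2.84% of pairs, 1.22% as higher; the list counts by these rules stand against those shares.

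Among proteases that such inhibitors meet, 2 of the 9 genes tested in CD4 T cells rose, Gzmk and Gzmb, and 0 fell. Gzmk, a serine protease of cytotoxic granules, held 182, 256 and 114 UMIs per 1e6 under the label p16-DTR and 40.6, 52.4 and 42.2 in controls (log2 fold change 2.00, SE 0.27, edgeR adjusted p = 0.00899). Gzmb, a target of Serpina3n and Serpinb9, held 128, 97.4 and 41.8 against 19.7, 5.56 and 17.3 (log2 fold change 2.62, SE 0.49, edgeR adjusted p = 0.0285). The Gzmk call held with each library left out in turn, and the Gzmb call in 1 of these 6 fits, with the highest adjusted p of 0.0877 without p16-DTR replicate 2. The summed NK cell markers given above moved with both genes in this class, and their part was not tested.

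A further pair of genes on that list fell. Ctsh, the lysosomal cathepsin H, fell in venous endothelium from 140.1 ± 6.11 UMIs per 1e6 in controls to 84.0 ± 15.7 (SD, n = 3; log2 fold change −0.72, with an edgeR adjusted p = 0.0314; 2.55% of genes in the class passed). Prtn3, proteinase 3 of neutrophil granules, fell in alveolar fibroblasts from 14.7 ± 3.05 to 6.65 ± 0.451 (a log2 fold change of −1.12, with an edgeR adjusted p = 0.0434; 0.554% of genes passed). The calls held in 1 and 2 of 6 fits that left out a library. The highest adjusted p were 0.124 and 0.123, both without p16-DTR replicate 3. Of 151 pairs of the list, 2 were higher and 2 lower.

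Of other serpins, 3 pairs were higher and 2 lower out of 206. Serpinb9, the cell's own inhibitor of granzyme B, rose in CD4 T cells to 101, 170 and 116 UMIs per 1e6 from 72.6, 53.8 and 55.1 (log2 fold change 1.09, SE 0.19, edgeR adjusted p = 0.0229). Serpinb6b rose there as well, at 78.0 ± 29.3 against 34.4 ± 5.87 (SD, n = 3; edgeR adjusted p = 0.0427). Serpinb1a, an inhibitor of neutrophil proteases, fell in the same cells to 23.0 ± 10.9 from 65.0 ± 7.76 (log2 fold change −1.53, edgeR adjusted p = 0.0408). Serpinh1, the collagen chaperone of the endoplasmic reticulum, rose in peribronchial fibroblasts from 270 ± 12.6 to 422 ± 84.0 (edgeR adjusted p = 0.0404; 1.75% of genes passed). The NK cell marker sum of the CD4 T cell class, given above, differed between the labels beside these and the other calls in that class, and its part in them was not tested. With a library left out the 4 calls held in 4, 1, 1 and 1 of 6 fits, and the highest adjusted p were 0.0891 without control replicate 3 for Serpinb9, 0.118 without control replicate 2 for Serpinb6b, and 0.111 and 0.125 without control replicate 1 for Serpinb1a and Serpinh1.

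**Figure D5:**
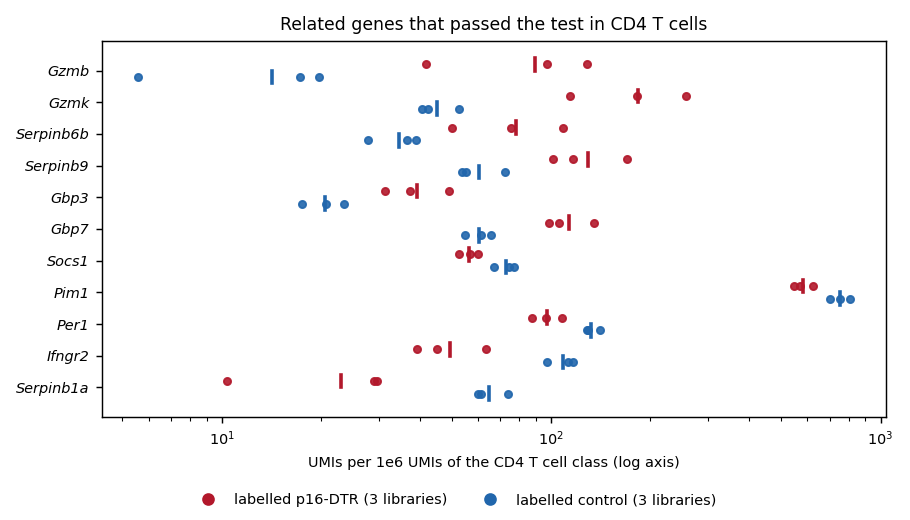
Levels of the 11 related genes that passed the test in CD4 T cells, in UMIs per 1e6 UMIs of the class (log axis); points are libraries, red for the label p16-DTR and blue for control, and short lines are means of 3. Gzmb, Gzmk, Serpinb6b, Serpinb9, Gbp3 and Gbp7 are higher and 5 genes lower in the 3 libraries labelled p16-DTR.

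Interleukin 6 family signals drive acute-phase serpins in liver, and their list gave 1 higher and 3 lower pairs of 276. Socs3, the feedback inhibitor of this pathway, fell in NK cells from 74.8 ± 16.5 to 40.3 ± 4.70 UMIs per 1e6 (SD, n = 3; log2 fold change −0.95, edgeR adjusted p = 0.0446; 0.338% of genes passed) and in ciliated cells from 215 ± 18.2 to 108 ± 22.1 (edgeR adjusted p = 0.0497; 0.057% of genes passed). Pim1, a kinase induced by STAT factors, fell in CD4 T cells from 755 ± 52.7 to 580 ± 40.1 (edgeR adjusted p = 0.0326). Il6ra, a receptor subunit, rose in peribronchial fibroblasts from 33.8 ± 7.08 to 70.3 ± 18.9 (edgeR adjusted p = 0.0390). These calls held in 1 or 2 of 6 fits with a library left out, and the highest adjusted p was 0.237, for Socs3 in NK cells without control replicate 3.

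The acute-phase list, genes such as Lcn2, Hp and C3 that rise together in liver and inflamed tissue, had 0 calls in 156 pairs by edgeR; 41 had an unadjusted p under 0.05, and DESeq2 called 17, 9 of them higher. Its median log2 fold change in alveolar fibroblasts was −0.04, beside 0.01 over all genes of the class. Glucocorticoid targets gave 1 higher and 1 lower pair of 214 by edgeR; 99 had an unadjusted p under 0.05, and DESeq2 called 27, 20 of them higher. The median log2 fold change of this list was 0.60 in alveolar fibroblasts, where 0 of 12 genes passed, and was above 0 in 18 of 19 classes. Fkbp5, a chaperone induced by glucocorticoids, rose in NK cells from 87.3 ± 13.7 to 168 ± 28.8 UMIs per 1e6 (SD, n = 3; edgeR adjusted p = 0.0334), and Per1, a clock gene, fell in CD4 T cells from 133 ± 6.62 to 97.3 ± 10.5 (edgeR adjusted p = 0.0285). The calls held in 2 and 1 of 6 fits, with the highest adjusted p of 0.192 without control replicate 3 and 0.101 without p16-DTR replicate 2.

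Interferon gamma induces Serpina3g in leukocytes, and the list of its receptors, signal genes and targets gave 3 higher and 5 lower pairs of 297. Ifngr2, a receptor subunit, fell in CD4 T cells from 109 ± 10.4 to 49.2 ± 12.6 UMIs per 1e6 (SD, n = 3; log2 fold change −1.19, edgeR adjusted p = 0.0103) and in CD8 T cells from 55.8 ± 9.45 to 28.0 ± 5.20 (edgeR adjusted p = 0.0350; 0.469% of genes passed). Gbp7, a guanylate-binding protein induced by interferon, rose in CD4 T cells to 106, 135 and 98.3 from 61.3, 54.7 and 65.5 (log2 fold change 0.88, edgeR adjusted p = 0.0103). The CD4 calls of both held in 6 of 6 fits with a library left out, whereas the CD8 call of Ifngr2 held in 2, with the highest adjusted p of 0.138 without control replicate 3.

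Socs1, an inhibitor of interferon signals, fell in venous endothelium from 22.9 ± 1.55 to 11.6 ± 1.23 UMIs per 1e6 (SD, n = 3; edgeR adjusted p = 0.0154) and in CD4 T cells from 73.0 ± 5.06 to 56.5 ± 3.60 (edgeR adjusted p = 0.0450). Irf1, a transcription factor of the response, fell in peribronchial fibroblasts from 370.3 ± 25.7 to 195 ± 43.2 (edgeR adjusted p = 0.0186). In CD4 T cells, where Serpina3g was higher, 2 of the 17 tested genes of the list rose and 2 fell. With a library left out the calls held in 4, 0 and 2 of 6 fits, with the highest adjusted p of 0.0667 and 0.149 without p16-DTR replicate 3 for Socs1 and 0.0725 without control replicate 1 for Irf1. DESeq2 called 20 pairs of the other serpins (14 higher), 12 of the proteases (9 higher), 23 of the interleukin 6 list (7 higher) and 26 of the interferon gamma list (9 higher). The median log2 fold changes of these 4 lists were above 0 in 10, 17, 3 and 10 of 19 classes. These counts are descriptions, and no statement is made on a list as a whole.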

How the data were processed

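Droplet single-cell RNA sequencing with 10x GEM-X 3′ chemistry was done on CD45-sorted lung cells, per the labels. Per the file headers, Cell Ranger 8.0.1 wrote the deposited counts, which are raw UMIs of each gene in each barcode; the submitters' processing notes name the build mm10. Cells with at least 300 genes, 500 UMIs and at most 15% mitochondrial UMIs were kept. A cell entered a class when at least 3 of up to 6 markers were detected, its class score was 1.2 times the next and its lineage score 2 times the next, which leaves out cells of mixed lineages; no doublet caller was run. UMIs were summed per library and class and scaled to 1e6.

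Log2 fold changes and adjusted p came from the edgeR 4.0.16 quasi-likelihood test (R 4.3.3, filterByExpr, TMM, group alone, Benjamini-Hochberg over all genes of a class at 0.05), checked on simulated data. Each SE was derived from that fit, as the absolute log2 fold change divided by the square root of the F statistic. P-values rest on 1 library per mouse. Shares were taken after thinning to 5000 UMIs; limits for 0 allow 3 counts and cover counting error only. Alternatives were RLE or library size, no filter, DESeq2 1.42.0, a replicate block, each library left out, a stricter gate (4 markers), a stricter cell filter (1000 UMIs, 5% mitochondrial), and no top 5% of cells by UMIs.

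Named list genes are the up to 4 called in most classes per list, and like genes the 5 with the highest Spearman rho among genes with at least 10 UMIs per 1e6 in a class (log2 with a pseudocount of 1); 1 like gene is not reported here. Members and lists were chosen with earlier results of these data known. Libraries were not paired by replicate number in the main fit. In 0 of 20 classes (all cells included) did every same-numbered pair correlate above 0.1. This rule cannot exclude a batch or litter shared by libraries of the same number.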

Additional observations from a re-analysis of the deposited data

Results flagged for a closer look

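Serpina3n differed between the labels in opposite directions in different classes. The 3 libraries labelled p16-DTR were all higher in alveolar fibroblasts (log2 fold change 0.42) and aerocytes (0.77). They were all lower in lymphatic endothelium (−0.44), classical monocytes (−0.79) and CD8 T cells (−1.38); without control replicate 1 the last 2 were −0.47 and −0.60. The difference between classes was not tested. The values in monocytes and CD8 T cells are near or below the level in neutrophils, and the lymphatic values are above it.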

How the results depend on the processing

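For the 13 pairs of a member and a class whose groups did not overlap, 179 of 182 values under the alternatives stayed within 1 SD of the log2 level and 0 changed sign. The exceptions were Serpina3n in CD8 T cells, −0.47 without the cells with most UMIs, and 2 values with a library left out. With each library left out in turn, Serpina3f in aerocytes ranged from 1.27 to 2.43 and Serpina3n in CD8 T cells from −1.74 to −0.60. Such a fit could hardly change the sign of these 13 pairs, since they were picked for groups that do not overlap. Sign changes did occur among other pairs. Serpina3g in arterial endothelium kept its sign in 3 of 6 such fits, and Serpina3n in nonclassical monocytes in 4 of 6.

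The thinned difference in the share of cells depended on depth, by construction. For Serpina3g in CD4 T cells it was 11.1 percentage points, 13.96 without thinning and 7.97 at 2500 UMIs. For Serpina3f in general capillary cells it was 0.951, 1.62 and 0.419, and for Serpina3g there 1.33 and, without thinning, 2.31.

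The count of calls in the related lists was 23, but 126 with DESeq2, 157 without the filter on low counts, which also tests more genes, and 39 without the cells with most UMIs; the cause was not tested. With a library left out it ranged from 7 (without control replicate 1) to 24 (without p16-DTR replicate 1), and was 9 without control replicate 3, 9 without p16-DTR replicate 3, 12 without p16-DTR replicate 2 and 19 without control replicate 2; 5 to 13 of the 23 calls were among them. With the replicate block it was 30, of which 12 were shared; every library correlated best with its own number in CD8 T cells and in no other class.

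With 3 libraries per group, some low levels rest on few UMIs, such as Serpina3f in aerocytes (84 and 40) and Serpina3i in lymphatic endothelium (59 and 38), where a single cell or library can set a value.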
